A study of Mus musculus with 26 samples.

Results

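Amacrine cell genes were followed across 5 inhibitor experiments in rd10 mice: 10 named genes of the 37991 Ensembl genes in the table of read counts. The genes were Gad1, Gad2, Slc6a9 and Slc32a1 for the inhibitory transmitters, Tfap2a, Tfap2b and Pax6 among the transcription factors, and Chat, Th and Calb2, which mark subtypes. Each symbol was matched to its Ensembl gene, with the highest mean count deciding where several genes shared a symbol, and each of the 10 symbols had a single gene. Tfap2a and Tfap2b carry the older names Tcfap2a and Tcfap2b in the annotation.

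The rd10 strain (B6.CXB1-Pde6brd10/J) carries a mutation in Pde6b, a subunit of the rod phosphodiesterase, and loses its rods in the first weeks of life. The mice received intraperitoneal injections that began at PN9, and retinas were collected at PN24. Whole retinas came from 2 mice given DZNep and 4 saline controls, from 3 given the EZH2 inhibitor UNC1999 and 3 controls, from 2 given the G9A/GLP inhibitor UNC0642 and 2 controls, and from 3 given the HDAC inhibitor Romidepsin and 3 controls. DZNep is used in the study as an EZH2 inhibitor, and EZH2 writes the repressive mark H3K27me3. In the fifth experiment, rods were sorted from rd10 mice crossed with the Nrl-EGFP line, in which the Nrl promoter drives EGFP in rods, after saline (2 libraries) or the LSD1 inhibitor GSK2879552 (2 libraries). Every mouse carried rd10, so no comparison was made with a healthy retina. Injections were daily by the labels, while the study describes a sparser schedule for DZNep after the first days. The methods dissolve UNC1999 in a mixture of DMSO, PEG300, Tween-80 and saline and the labels give saline for the controls, so this vehicle and the drug cannot be told apart, and the labels name neither litters nor pools of animals for the retinas. P-values measure the spread between these libraries only.

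Amacrine cells are the interneurons of the inner retina. They receive input from bipolar cells and inhibit bipolar cells, ganglion cells and each other, most of them with GABA or glycine. Smaller subtypes add a second transmitter, such as the starburst cells, which release acetylcholine, and the dopaminergic cells. Several of the 10 genes are not private to amacrine cells. Horizontal cells use part of the GABA and AP-2 programme, Pax6 is also found in ganglion, horizontal and Müller cells, and Calb2 (calretinin) in ganglion cells. In whole retinas, fewer amacrine cells and less RNA per amacrine cell cannot be told apart.

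All positions are on NCBIM37, the build of the counts. Gad1 (ENSMUSG00000070880, chr2:70391129-70440071, plus strand) and Gad2 (ENSMUSG00000026787, chr2:22477725-22549394, plus strand) encode the enzymes that make GABA from glutamate. Slc32a1 (ENSMUSG00000037771, chr2:158436494-158441484, plus strand) encodes the transporter that loads GABA and glycine into synaptic vesicles, and Slc6a9 (ENSMUSG00000028542, chr4:117507111-117547803, plus strand) the glycine transporter GlyT1 of the plasma membrane. Tfap2a (ENSMUSG00000021359, chr13:40811044-40829192, minus strand) and Tfap2b (ENSMUSG00000025927, chr1:19198995-19228815, plus strand) encode AP-2 transcription factors. Pax6 (ENSMUSG00000027168, chr2:105509053-105543317, plus strand) encodes a homeodomain factor of the developing and adult eye. Chat (ENSMUSG00000021919, chr14:33221389-33279095, minus strand) encodes choline acetyltransferase, which makes acetylcholine. Th (ENSMUSG00000000214, chr7:150078657-150117033, minus strand) encodes tyrosine hydroxylase, which starts dopamine synthesis. Calb2 (ENSMUSG00000003657, chr8:112661402-112692110, minus strand) encodes the calcium-binding protein calretinin.

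Reads of overlapping genes on the other strand are a limit for a few members, since no source says whether the counting used strand. Slc6a9 overlaps B4galt2 (mean count 980 over the 26 libraries) and Ccdc24 (249.8), and Pax6 overlaps Elp4 (691) and Pax6os1 (82.4). The members' own mean counts were 5889 for Slc6a9 and 7376 for Pax6.

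Promoter sequences are shown because AP-2 factors are themselves among the members. RefSeq (build GRCm38.p6, not the build of the counts) held 13 windows for 9 of the 10 members, each with 250 bases before and 50 after a transcription start. The windows of Gad2, Pax6 and Slc32a1 follow, with each match to the AP-2 motif GCCNNNGGC in capitals; the motif reads the same on both strands.
Gad2, chr2:22622077-22622376, plus strand: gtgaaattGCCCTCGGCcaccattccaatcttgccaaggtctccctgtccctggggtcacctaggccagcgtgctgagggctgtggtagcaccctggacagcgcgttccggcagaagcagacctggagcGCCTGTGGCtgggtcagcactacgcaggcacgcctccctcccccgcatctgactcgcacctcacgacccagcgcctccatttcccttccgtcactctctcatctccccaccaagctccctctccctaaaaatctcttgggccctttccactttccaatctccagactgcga
Pax6, chr2:105668646-105668945, plus strand: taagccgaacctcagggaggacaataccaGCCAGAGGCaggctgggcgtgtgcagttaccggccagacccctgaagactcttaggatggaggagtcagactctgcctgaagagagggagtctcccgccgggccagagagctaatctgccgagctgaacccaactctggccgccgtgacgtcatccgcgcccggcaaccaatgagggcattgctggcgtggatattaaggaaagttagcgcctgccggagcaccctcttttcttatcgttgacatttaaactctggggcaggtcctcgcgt
Slc32a1, chr2:158610508-158610807, plus strand: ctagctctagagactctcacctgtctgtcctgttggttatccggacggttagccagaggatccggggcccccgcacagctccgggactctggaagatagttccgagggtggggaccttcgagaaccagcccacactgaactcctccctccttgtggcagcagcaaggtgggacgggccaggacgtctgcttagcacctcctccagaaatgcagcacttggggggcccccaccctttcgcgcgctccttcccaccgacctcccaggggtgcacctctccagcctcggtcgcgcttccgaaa

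The Gad2 window held 2 matches and this Pax6 window 1, while the other 11 windows of members, Slc32a1 included, held none. Over all 32851 promoter windows of the same length, 16.6% held at least 1 match. The Gad2 and Slc32a1 windows held 14 and 17 CpG dinucleotides, this Pax6 window 18, and the median over all windows was 7. A match describes the letters of the window and was not set against any binding data.

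Depth was high enough for each member in whole retinas. The 22 retina libraries held 13732959 to 36354094 counted reads and the 4 libraries of sorted rods 7289460 to 19864491. Levels are given as CPM, read counts relative to library size, scaled within each experiment by edgeR's TMM factors, and where genes are compared with each other as CPM per kb of annotated exons. A count of 3, taken as the floor, lay between 0.083 and 0.412 CPM, and that floor covers counting error only. The lowest count of any member in a retina was 66, for Th, and all 10 members passed the filter on low counts in the 4 retina comparisons.

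In the 12 control retinas the members spanned more than 100-fold per kb of exon. Calb2 had the highest median level, 284 CPM per kb (mean 291 ± 30.6, SD, n = 12), and Th the lowest, 1.95 CPM per kb (mean 1.94 ± 0.36). Slc32a1 followed Calb2 with a median of 77.1 CPM per kb, ahead of Slc6a9 (68.6), Gad1 (58.8) and Tfap2b (48.4). The ranges of neighbouring members among these 4 overlapped, while those of Slc32a1 (61.6 to 87.9 CPM per kb) and Tfap2b (40.1 to 58.1) did not. Pax6 (22.9), Tfap2a (18.4) and Gad2 (17.5) formed a second group with overlapping ranges, and Chat stood below them at 9.98 CPM per kb. The value for Pax6 is divided by 19833 bases of annotated exon, the longest of the 10, against 1742 bases for Calb2. The control ranges of Calb2, Chat and Th overlapped with those of no neighbouring member in this order.

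**Figure D1:**
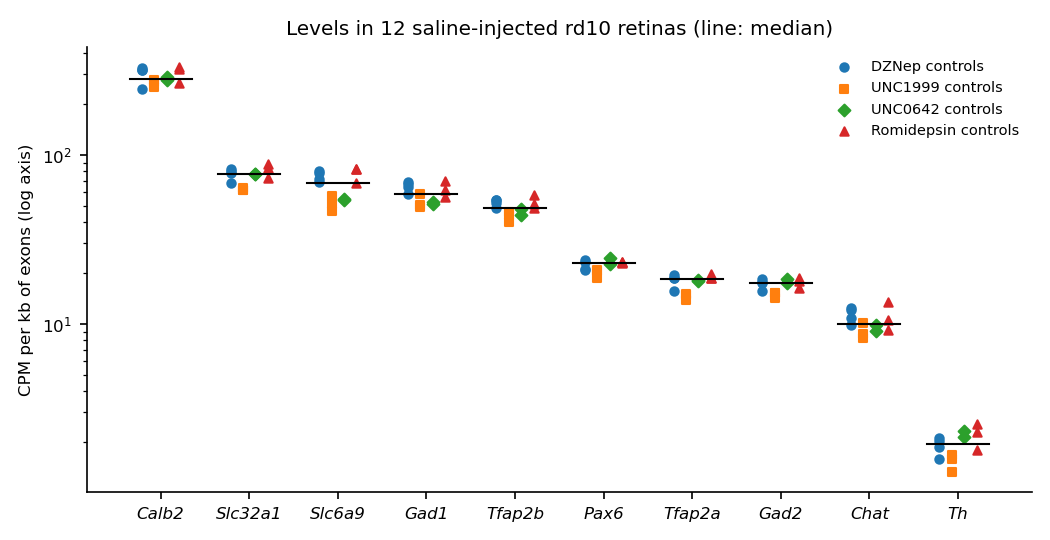
Level of each member in the 12 saline-injected rd10 retinas, in CPM per kb of exons on a log axis, with 1 point per library, shapes and colours for the 4 experiments and a line at the median. Calb2 lies highest (median 284) and Th lowest (median 1.95), and the control retinas of the UNC1999 experiment lie at the low side for most members.

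Control retinas also differed between experiments. Slc6a9 averaged 266 CPM in the UNC1999 controls and 279.8 CPM in the UNC0642 controls but 385 CPM in the DZNep controls and 398 CPM in the Romidepsin controls. Slc32a1 averaged 175.5 CPM in the UNC1999 controls and 216 to 228 CPM in the other 3 sets. The experiments were scaled separately, and each treatment was compared with its own controls only.

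In the DZNep retinas 4 of the 10 members were lower than in the controls: Slc32a1, Pax6, Calb2 and Slc6a9. Their levels fell by 18.9%, 17.1%, 22.9% and 15.9%. No member was higher by the test, although Th lay above the controls in both DZNep retinas. A gene passed when the p-value of edgeR's quasi-likelihood F test, adjusted by Benjamini-Hochberg over all genes tested, was under 0.05. Of 16477 genes tested, 9.72% were lower and 12.9% higher by that rule.

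The vesicular transporter Slc32a1 measured 192, 225, 219 and 231 CPM in the 4 controls and 174 and 177.5 CPM in the DZNep retinas. The groups did not overlap, and the log2 fold change was -0.30 (SE 0.071, 95% interval -0.46 to -0.14, adjusted p = 0.0177). The glycine transporter Slc6a9 measured 357, 401, 369.6 and 414 CPM in the controls and 307 and 342 CPM after DZNep. Again both treated retinas lay under every control, with a log2 fold change of -0.25 (SE 0.074, 95% interval -0.42 to -0.08, adjusted p = 0.041). For the enzymes of GABA synthesis, Gad1 and Gad2, 1 of the DZNep retinas lay within the control range. Their log2 fold changes were -0.16 (95% interval -0.32 to -0.0017, adjusted p = 0.133) and -0.16 (95% interval -0.33 to 0.0026, adjusted p = 0.142).

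Among the transcription factors, Pax6 fell. It measured 412, 459, 421 and 473 CPM in the controls and 357 and 375 CPM after DZNep, without overlap, and its log2 fold change was -0.27 (SE 0.067, 95% interval -0.42 to -0.12, adjusted p = 0.022). Tfap2b measured 295 and 292 CPM after DZNep against 309 to 347 CPM in the controls and missed the threshold narrowly (log2 fold change -0.18, 95% interval -0.31 to -0.05, adjusted p = 0.0513). Tfap2a overlapped with its controls (log2 fold change -0.12, 95% interval -0.31 to 0.071, adjusted p = 0.338).

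Of the subtype genes, only Calb2 passed. Calretinin (Calb2) measured 426, 554, 553 and 572.5 CPM in the controls and 405.5 and 407 CPM after DZNep, a log2 fold change of -0.37 (SE 0.11, 95% interval -0.62 to -0.13, adjusted p = 0.0388). The first control lay much closer to the DZNep retinas than to the other 3 controls. Th measured 4.78, 4.42, 3.74 and 5.01 CPM in the controls and 7.65 and 5.06 CPM after DZNep. These values rest on 81 to 131 counts per control and on 262 and 68 counts in the treated retinas, and the second DZNep retina was barely above the highest control. The log2 fold change of Th was 0.53 (SE 0.19, 95% interval 0.11 to 0.96, adjusted p = 0.073). Chat overlapped with its controls at 23.9 and 29.6 CPM against 27.6 to 34.8 CPM (log2 fold change -0.27, adjusted p = 0.127).

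Taken by direction, 9 of the 10 log2 fold changes were below 0 and their median was -0.22, against 50.1% of all genes tested and a median of -0.00057. In 5 members (Slc6a9, Slc32a1, Tfap2b, Pax6 and Calb2) both DZNep retinas lay below every control, a pattern that 21.5% of all genes tested showed. In 1 member, Th, both lay above every control, as in 24.4% of all genes.

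**Figure D2:**
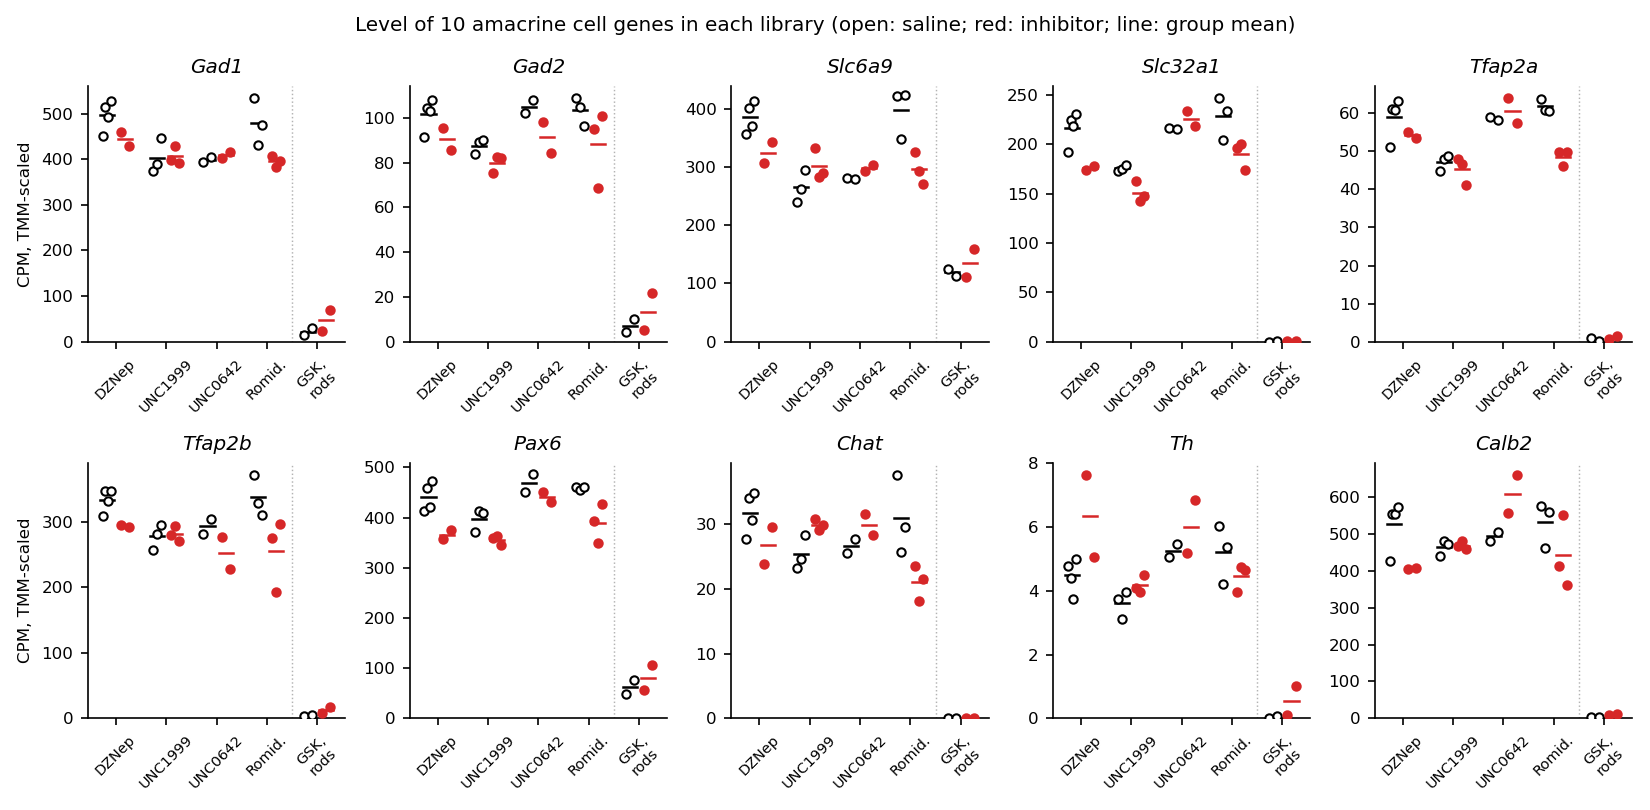
Level of the 10 members in each of the 26 libraries, in TMM-scaled CPM on axes that start at 0, with open points for saline, red points for the inhibitor and a line at each group mean. After DZNep, Slc32a1 (174 and 177.5 CPM) and Pax6 (357 and 375 CPM) lie under every control. All members lie lower in the sorted rods at the right of each panel than in any retina, Slc6a9 least so (111 to 158 CPM).

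These calls rest on few libraries. Slc32a1 and Pax6 lost the threshold when the second control (adjusted p = 0.0512 and 0.0627), the first DZNep retina (0.133 and 0.171) or the second DZNep retina (0.0753 and 0.0723) was left out, with the direction kept. Calb2 and Slc6a9 passed in no fit that left out 1 library other than the first control. Without that control 9 members and 4537 of all genes passed, against 4 members and 3734 genes with all libraries. That control was the lowest of the 4 controls for 9 of the 10 members. The share of all genes for which that control was the lowest was not counted.

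Other retinal genes moved at the same time. The 20 rod genes rose in 20 of 20 cases (median log2 fold change 1.09), and their summed level was 23330 to 38320 CPM in the controls and 69510 to 72010 CPM after DZNep. Genes of other inner retinal cells were lower too, and the difference between these lists and the members was not tested. By the test, 11 of 14 bipolar cell genes fell (median -0.25), 3 of 12 ganglion cell genes (median -0.30), 6 of 7 horizontal cell genes (median -0.40) and 9 of 10 Müller glia genes (median -0.40). Of 10 genes of the retinal pigment epithelium, which lies against the photoreceptors, 5 rose (median 1.18), with a summed level of 92.8 to 213.9 CPM in the controls and 240.4 and 398.4 CPM after DZNep. All 12 microglia genes had log2 fold changes below 0 (median -0.76) and none passed. Of 7 lens genes tested 2 rose, and their summed level was 93.6 CPM in the second DZNep retina against 5.89 to 9.11 CPM in the other 5 libraries. The summed level of the bipolar cell genes was 2770 to 3081 CPM in the controls and 2385 to 2483 CPM after DZNep. When libraries were scaled without the 20 rod genes, the same count of 4 members passed. When they were scaled to the summed counts of the bipolar and ganglion cell genes, an alternative added after the data were seen, the median of all genes shifted by 0.27, the changes of Pax6 and Slc6a9 turned to 0.0085 and 0.029, and those of Slc32a1 and Calb2 became -0.021 (adjusted p = 0.826) and -0.09 (adjusted p = 0.39). On that scale Th was the single member that passed (log2 fold change 0.80, adjusted p = 0.0153), where 6077 of the 16477 genes tested were higher and 158 lower. The lower levels of Slc32a1, Pax6, Calb2 and Slc6a9 are therefore lower relative to the whole library, and no difference was detected relative to bipolar and ganglion cell genes. What part the larger amount of rod RNA, the pigment epithelium genes or the lens genes had in this was not tested.

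Other amacrine genes were taken from lists that hold none of the members, and are read against the 9.72% of all genes that were lower after DZNep. Of 17 other amacrine transcription factors tested, 4 fell and none rose by the test (median -0.13): Neurod2 (log2 fold change -0.42, adjusted p = 0.0074), the third AP-2 gene Tfap2c (-0.33, adjusted p = 0.0083), Prox1 (-0.22, adjusted p = 0.0122) and Isl1 (-0.26, adjusted p = 0.0263). Prox1 is also used by horizontal, bipolar and AII amacrine cells, and Isl1 by starburst amacrine, ON bipolar and ganglion cells. Of 17 other transmitter and coupling genes, 5 fell and none rose by the test (median -0.22). They included Abat, which degrades GABA (-0.35, adjusted p = 0.0032), Megf11 of starburst and horizontal cells (-0.35, adjusted p = 0.0039), calbindin Calb1 (-0.29, adjusted p = 0.0095) and the vesicular glutamate transporter Slc17a8 (-0.47, adjusted p = 0.0195). Calb1 also stands in the horizontal cell list and Isl1 in that of the bipolar cells.

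GABA and glycine receptors are the proteins on which the main amacrine transmitters act. Of 22 genes for these receptors and their anchors, 6 fell, where 9.72% of all genes did, none rose by the test and all 22 log2 fold changes were below 0 (median -0.18). Those with the smallest p-values included the GABA-A subunit Gabra3 (-0.37, adjusted p = 0.0021), the GABA-C subunit Gabrr2 of bipolar cells (-0.33, adjusted p = 0.0057) and the glycine receptor subunit Glra3 (-0.51, adjusted p = 0.0072). As for the members, these values are relative to the whole library.

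**Figure D3:**
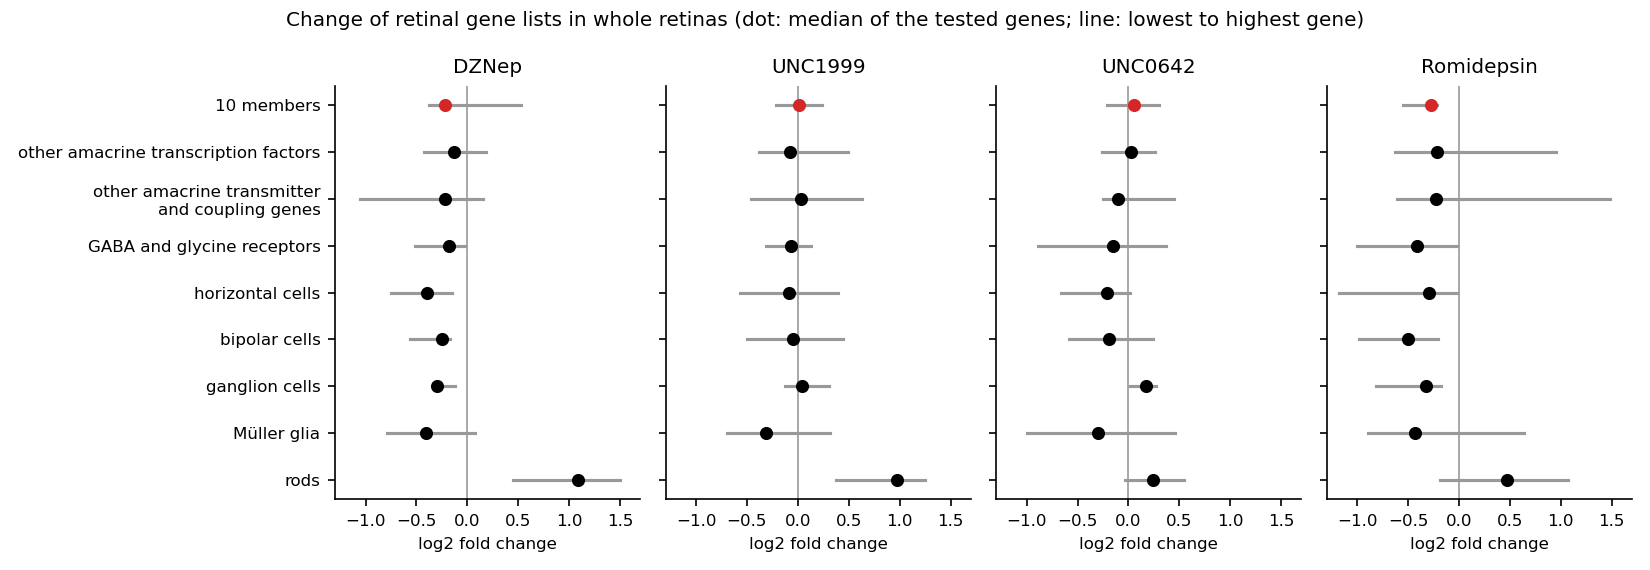
Change of the 10 members (red) and of 8 other gene lists in the 4 whole-retina experiments, as the median log2 fold change of the genes tested (dot) and the range from the lowest to the highest gene (line). After DZNep and Romidepsin the medians of the lists of inner retinal cells lie below 0 and that of the rod list above it (1.09 and 0.47). The ranges of several lists cross 0 in these experiments. Scaled to bipolar and ganglion cell genes, 7 of the 10 members change sign in each of these experiments.

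UNC1999, an inhibitor of EZH2 itself, changed no member past the threshold. Of 15775 genes tested, 0.501% were higher and 0.101% lower by the rule. At an unadjusted p under 0.05, 1 member was higher (Chat), as were 11.8% of all genes, and 2 were lower (Slc32a1 and Pax6), as were 11.9%; the likelihood ratio test and DESeq2 also passed 0 members. Between -0.22 and 0.24, the 10 log2 fold changes had a median of 0.011, with 6 above and 4 below 0.

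Slc32a1 was the member with the smallest p in this experiment. It measured 173, 175 and 179 CPM in the controls and 163, 142.5 and 147 CPM after UNC1999, without overlap (log2 fold change -0.22, 95% interval -0.37 to -0.067, adjusted p = 0.103). Pax6 measured 370.3, 413.5 and 409 CPM in the controls and 359.5, 363 and 344 CPM in the treated retinas, also without overlap (log2 fold change -0.16, 95% interval -0.32 to -0.004, adjusted p = 0.203). Chat lay in the other direction, at 23.3, 24.6 and 28.3 CPM in the controls and 30.9, 29.0 and 29.9 CPM after UNC1999 (log2 fold change 0.24, 95% interval 0.031 to 0.45, adjusted p = 0.163). Chat passed when the third control was left out (adjusted p = 0.032). In 3 members all treated retinas lay below all controls and in 2 above them, where 13.6% and 13.9% of all genes did so.

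For Gad1, Tfap2b and Calb2 the data limit the size of any change by UNC1999. Their log2 fold changes were 0.012, 0.019 and 0.01, with 95% intervals of -0.18 to 0.21, -0.15 to 0.18 and -0.14 to 0.16, and their signs turned when single libraries were left out. The rod genes were all above 0 in this experiment too (median 0.97, summed level 24710 to 45940 CPM in the controls and 61620 to 83400 CPM after UNC1999), while the bipolar and ganglion lists had medians of -0.046 and 0.042. Of the 10 pigment epithelium genes 7 rose (median 1.55, summed level 139.9 to 173.4 CPM in the controls and 426.2 to 494.8 CPM after UNC1999), and all 12 microglia genes lay below 0 (median -1.09) with none past the threshold. The part of these cells in the values of the members was not tested. Side by side, the median log2 fold change of the rod genes was 1.09 after DZNep and 0.97 after UNC1999, and that of the members was -0.22 and 0.011. These medians come from separate sets of libraries, and the difference between them was not tested.

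UNC0642, an inhibitor of the H3K9 methyltransferases G9A and GLP, passed no member and no gene at all in either direction (0% of 16321 genes higher and 0% lower by edgeR's quasi-likelihood test). At an unadjusted p under 0.05, 2407 genes (14.7%) were called, 7.95% of all genes being higher, and 1 member was higher; the likelihood ratio test and DESeq2 called 145 and 172 genes but no member. That member was Calb2, which measured 482 and 506 CPM in the controls and 558 and 662 CPM after UNC0642. Both treated retinas lay above both controls, with a log2 fold change of 0.30 (95% interval 0.072 to 0.54, adjusted p = 0.304). Calb2 passed only in the fit with no filter on low counts (adjusted p = 0.0304). All 12 ganglion cell genes tested also lay above 0 (median log2 fold change 0.17), and none passed. Their summed level was 2123 and 2368 CPM in the controls and 2356 and 2721 CPM after UNC0642, highest in the retina with the highest Calb2. Of the 14 bipolar cell genes 12 lay below 0 (median -0.19), as did 50.3% of all genes. The part of other cells in the value of Calb2 was not tested.

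The remaining members had log2 fold changes between -0.21 and 0.19 after UNC0642. Slc32a1 measured 217 and 216 CPM in the controls and 233 and 218.5 CPM after treatment (log2 fold change 0.064, 95% interval -0.10 to 0.23). Gad2 and Tfap2b lay lower, with log2 fold changes of -0.20 (95% interval -0.42 to 0.025) and -0.21 (95% interval -0.46 to 0.038). With 2 libraries in each group, 4 members had both treated retinas above both controls and 3 had both below, where 26.9% and 25.2% of all genes tested did so.

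Romidepsin, an inhibitor of class I histone deacetylases, gave log2 fold changes below 0 for all 10 members, but none passed the threshold. The median was -0.27, against -0.0088 over the 16049 genes tested, of which 51.1% lay below 0; 0.573% of genes were higher and 0.174% lower by the rule. At an unadjusted p under 0.05, 5 members were lower (Gad1, Slc6a9, Tfap2a, Tfap2b and Chat), as were 9.46% of all genes, and the likelihood ratio test and DESeq2 passed 0 members. In 7 members every treated retina lay below every control, as in 12.5% of all genes, and in 0 members above, as in 13.5%.

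Chat had the largest change, with 37.7, 25.7 and 29.6 CPM in the controls and 23.6, 18.2 and 21.5 CPM after Romidepsin (log2 fold change -0.55, 95% interval -0.95 to -0.15, adjusted p = 0.134). Slc6a9 measured 422, 349 and 423 CPM in the controls and 325.5, 293 and 269.8 CPM in the treated retinas (log2 fold change -0.43, 95% interval -0.72 to -0.13, adjusted p = 0.124). Neither group of values overlapped with its controls. Tfap2a was the most even member within groups, at 63.8, 60.7 and 60.6 CPM against 49.7, 46.1 and 49.7 CPM (log2 fold change -0.35, 95% interval -0.58 to -0.11, adjusted p = 0.121).

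Tfap2b showed a wide spread, with 372, 329 and 310.2 CPM in the controls and 275, 192.5 and 295.5 CPM after Romidepsin. The second treated retina was the low one, and it was also the lowest for Gad2 (68.8 CPM against 95.2 and 101) and for Pax6 (349 CPM against 393 and 427). It was not low for Calb2, where it measured 553 CPM against 414 and 363 CPM in the other two. Calb2 and Tfap2b had log2 fold changes of -0.27 (95% interval -0.66 to 0.12) and -0.40 (95% interval -0.79 to -0.018). The median half-width of the 95% intervals was 0.32 after Romidepsin against 0.17 after DZNep, so a change of the median size seen after DZNep was not detectable here.

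The medians of other inner retinal lists were also below 0 after Romidepsin, at -0.50 for the bipolar cell genes, -0.32 for the ganglion cell genes, -0.44 for the Müller glia genes and -0.42 for the GABA and glycine receptors, of which all 22 lay below 0 and none passed. For the other amacrine transcription factors and the other amacrine transmitter and coupling genes the medians were -0.22 and -0.23. In these lists 1 of the 17 and 5 of the 16 genes tested lay above 0, and none passed. The rod genes had a median of 0.47, and their summed level was 20010 to 31730 CPM in the controls and 31300 to 41210 CPM after Romidepsin. The pigment epithelium genes had a median of -0.93 and a summed level of 135.9 to 150 CPM in the controls and 71.2 to 91.8 CPM after Romidepsin, with none past the threshold, and the part of these cells was not tested. Scaled to the bipolar and ganglion cell genes, where the median of all genes shifted by 0.39, the changes of 7 of the 10 members turned positive (0.052 to 0.19), and those of Slc6a9, Tfap2b and Chat stayed below 0. No member passed under any other setting tried for this experiment.

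**Figure D4:**
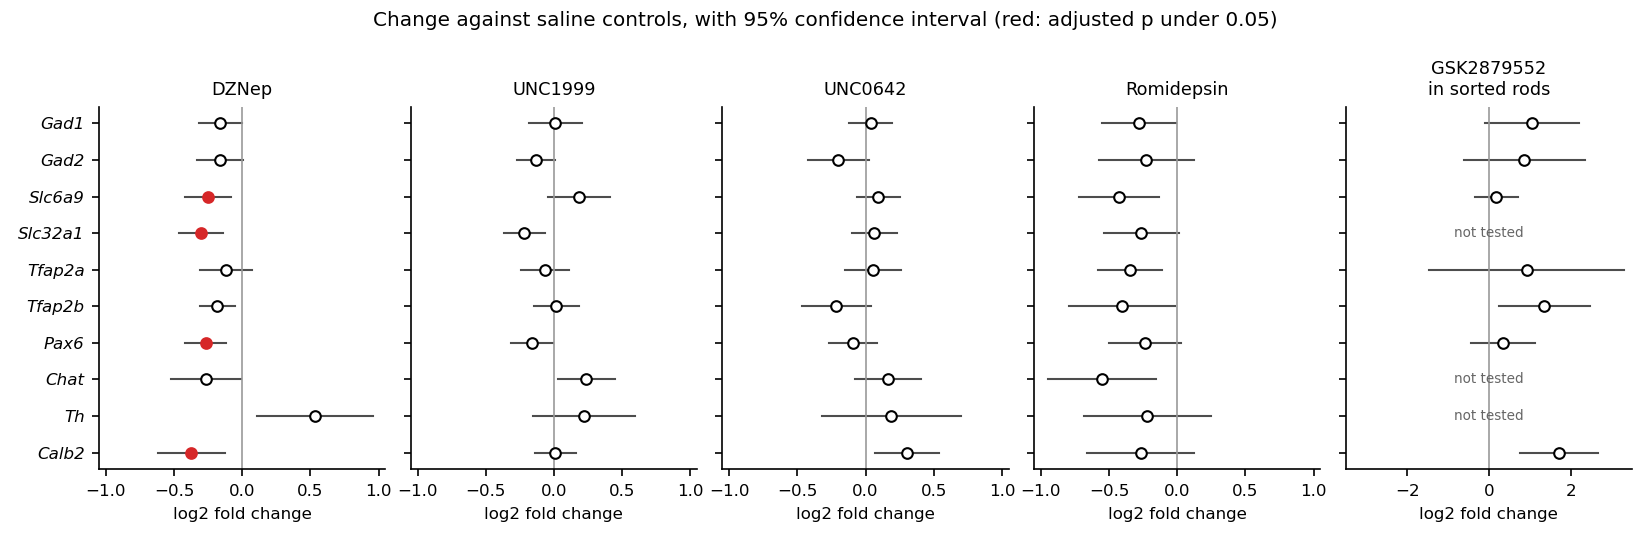
Log2 fold change of each member against the saline controls of its own experiment, with its 95% confidence interval; red points have an adjusted p under 0.05 and the axis for the sorted rods is wider. Slc6a9, Slc32a1, Pax6 and Calb2 pass after DZNep and no member passes elsewhere. Scaled to bipolar and ganglion cell genes, Slc6a9 and Pax6 change sign after DZNep and none of these 4 passes.

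Whether the 4 retina treatments changed a member by different amounts was tested in 1 fit of the 22 retinas, with an F test on the differences between the 4 changes. No member passed at an adjusted p under 0.05, where 1.96% of the 17274 genes tested did. By this F test 4 members (Slc6a9, Chat, Calb2 and Tfap2a) had an unadjusted p under 0.05. The share of all genes at that unadjusted level was not counted, so the 4 are not read as an excess. Slc6a9 and Chat came closest, with adjusted p-values of 0.0575 and 0.0639. Slc6a9 had log2 fold changes of -0.25 after DZNep, 0.18 after UNC1999, 0.093 after UNC0642 and -0.43 after Romidepsin, and Chat -0.27, 0.24, 0.17 and -0.55. The 2 genes thus had the same signs in the same experiments. Both passed by the likelihood ratio test, by DESeq2 and with no filter on low counts, and leaving out single retinas moved their adjusted p-values between 0.0202 and 0.129. For Gad2 (adjusted p = 0.96) and Pax6 (adjusted p = 0.694) no difference among the 4 changes was detected.

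Across the 22 retinas, centred on the mean of each experiment, most members varied together, with Th as the main exception. These are correlations over libraries that include the treated ones and share their scaling, and they are given as descriptions. The median Pearson's r of the 45 pairs of members was 0.57 and 39 pairs were above 0. The highest was that of Gad2 and Tfap2b (0.907), followed by Slc6a9 and Chat (0.888). All 9 pairs with Th lay between -0.33 and 0.19. Calb2 was near 0 with Gad2 (-0.010) and Tfap2b (0.069), and between 0.34 and 0.74 with the other members except Th.

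The genes most like each member, among 15375 genes and over the same 22 retinas, are named by their correlation with it. Tfap2b was closest to Negr1 (r = 0.985), Rgs7bp (0.976) and Atp2b3 (0.969), and Gad2 to Fstl5 (0.961), Gpm6a (0.958) and Rnf152 (0.949). Calb2 was closest to Sult4a1 (0.958), Snrpn (0.955) and Cend1 (0.946), Slc6a9 to Dync1i1 (0.95), Dnm1 (0.937) and Tmem25 (0.936), and Gad1 to Kcnip4 (0.945), Ppp2r2c (0.932) and Atp1b1 (0.927). Chat was closest to Syt7 (0.942), Mical2 (0.924) and Kndc1 (0.922), and Slc32a1 to Mapk8ip1 (0.936), Olfm1 (0.933) and Mtap6 (0.932). For Pax6 the closest gene was Abat (0.928), the enzyme that degrades GABA, before Mtus2 (0.916) and Abr (0.914), and for Tfap2a it was the LIM factor Isl1 (0.915), before Dusp3 (0.906) and Gnao1 (0.906). Th had the weakest likeness, to Ccdc66 (0.785), Dld (0.783) and Gm7029 (0.725).

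The sorted rods served as a check of the cell type, since rods should hold little RNA of amacrine genes. In the 2 libraries of control rods the members stood at a median of 1.29% of their mean level in the 12 control retinas, while the 20 rod genes stood at a median of 374%. Cone genes were not low either, since the 11 of them stood at a median of 139%. The 2 sets of libraries were scaled separately and, by the study's methods, made with different kits, so these percentages are descriptions. Chat had 0 counts in all 4 libraries of sorted rods, which allows at most 0.151 to 0.412 CPM, against 29.1 CPM in control retinas. Slc32a1 had 1 and 6 counts in the control rods, or 0.116% of its level in control retinas. Calb2 stood at 0.571%, Th at 0.64%, Tfap2a at 1.09% and Tfap2b at 1.5%.

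The other members were not so low. Gad1 stood at 4.92%, Gad2 at 7.18% and Pax6 at 14.3% of the retina, and Slc6a9 at 34.9%, with 126 and 112 CPM in the control rods. Of the other amacrine lists, the transcription factors had a median of 3.49% and the transmitter and coupling genes 3.92%, whereas the bipolar cell genes had a median of 29.3%. The 10 genes therefore did not share 1 common level in the sorted rods, as Slc32a1 at 0.116% and Slc6a9 at 34.9% show. Slc6a9 overlaps B4galt2 and Ccdc24, whose part in its value was not tested.

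**Figure D5:**
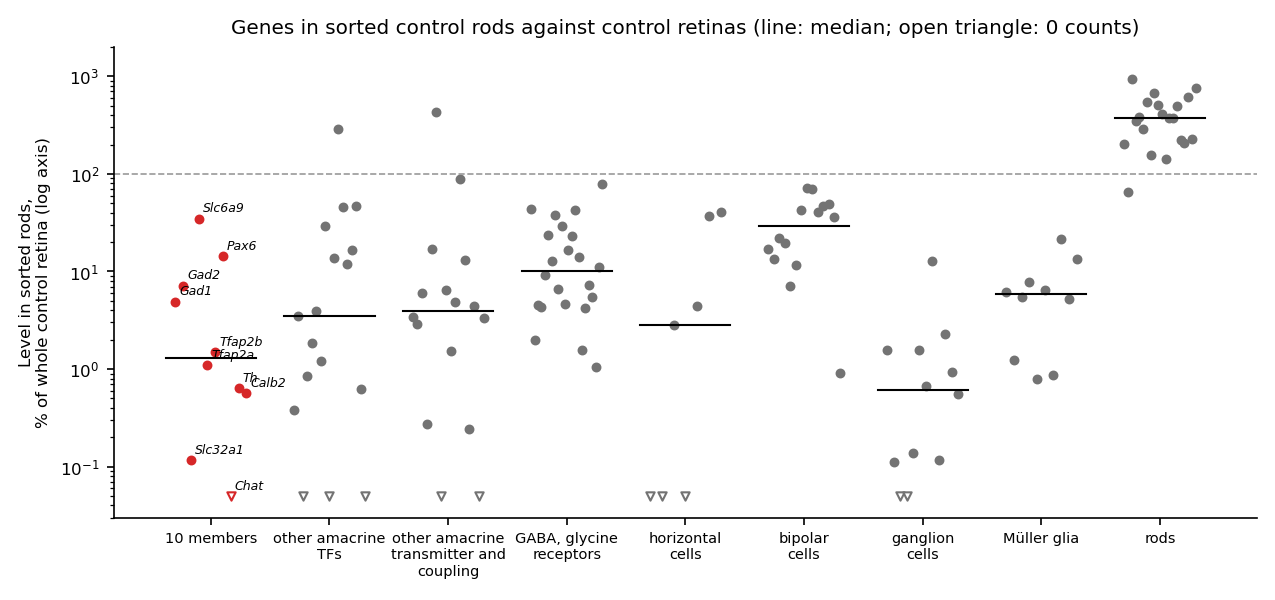
Level of each gene in the 2 libraries of sorted control rods as a percentage of its mean in the 12 control retinas, on a log axis, with members in red, a line at each list's median and open triangles for genes with 0 counts in the control rods; genes under 1 CPM in control retinas are left out. The members range from 0 (Chat) to 34.9% (Slc6a9) with a median of 1.29%, and the rod genes have a median of 374%. The cone genes, which are not drawn, have a median of 139%.

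After GSK2879552, an inhibitor of the demethylase LSD1, no member passed in the sorted rods, nor did any gene (0% of 14478 genes higher and 0% lower by edgeR's quasi-likelihood test). At an unadjusted p under 0.05, 711 genes (4.91%) were called, 2.78% of all genes being higher, and 2 members were higher, Calb2 and Tfap2b; the likelihood ratio test and DESeq2 called 71 and 48 genes but no member. Only 7 members were tested, since Slc32a1, Chat and Th did not pass the filter. The log2 fold changes of those 7 lay between 0.18 and 1.72, and the 3 members left out had at most 10 counts in any of the 4 libraries.

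Calb2 measured 2.81 and 2.99 CPM in control rods and 8.32 and 10.9 CPM after GSK2879552 (log2 fold change 1.72, 95% interval 0.76 to 2.68, adjusted p = 0.687). Tfap2b measured 3.88 and 5.50 CPM in control rods and 7.38 and 17.2 CPM after treatment (log2 fold change 1.36, 95% interval 0.25 to 2.46, adjusted p = 0.987). These levels are a few percent of those in the retina. The second GSK2879552 library was the highest of the 4 for 9 of the 10 members, Gad1 (70.4 CPM against 15.0 to 29.6), Pax6 (106 CPM against 48.2 to 77.2) and Slc6a9 (158 CPM against 111 to 126) among them. The share of all genes for which this library was the highest was not counted. Without that library the changes of Gad2, Slc6a9 and Pax6 turned below 0, and without the first GSK2879552 library Gad1 passed (log2 fold change 1.65, adjusted p = 0.0025).

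Among the lists of other genes, the second GSK2879552 library was also the highest of the 4 for the other amacrine transmitter and coupling genes (357 CPM against 239.5 to 248.7) and for the horizontal cell genes (139.2 CPM against 121.4 to 135.9). For the other amacrine transcription factors, the summed level was 372.4 and 378.6 CPM in the control rods and 296.8 and 324.8 CPM after GSK2879552. The second GSK2879552 library was not the highest for that list or for the next 3. The summed level of the Müller glia genes was 305 and 436.5 CPM in the control rods and 527 and 499 CPM after GSK2879552, that of the bipolar cell genes was 648 and 1015 CPM against 703 and 656 CPM, and that of the ganglion cell genes 56.9 and 36.5 CPM against 35.3 and 48.1 CPM. The ganglion cell factors Pou4f2, Pou4f3 and Isl2, the horizontal cell factors Onecut1 and Onecut3 and the amacrine genes Foxn4, Gbx2, Ddc, Slc6a3 and Pvalb had 0 counts in all 4 libraries. Of these, Isl2, Foxn4 and Slc6a3 had mean counts of 0, 0.92 and 5.31 over all 26 libraries. Ddc and Gbx2 stood at 1.01 and 1.59 CPM in control retinas, so the zeros of these low genes tell little about the sorting. Other genes of the ganglion and horizontal cell lists reached 12.8% and 40.9% of the retina in the control rods. What part carry-over from other cells had in the values of the members in sorted rods was not tested.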

How the data were processed

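Libraries of poly(A) RNA from 22 whole retinas and 4 sorted rod samples were analysed, grouped by the study's labels. The authors trimmed the reads (BBDuk), aligned them with HISAT2 2.2.1 to NCBIM37 and counted them on genes with HTSeq 0.11.2. Deposited were unnormalized counts for 37991 Ensembl genes, all whole numbers, and all 26 columns were used. For the sorted rods the labels name a stranded Illumina kit and the methods SMART-Seq. The genotype labels end in a number that rises from library to library, and all were taken as rd10. Symbols and exon lengths came from GENCODE M1 on the same build, with RefSeq synonyms for renamed genes.

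Each treatment was compared with its own controls in edgeR 4.0.16 (R 4.3.3): filterByExpr, TMM and the quasi-likelihood F test, where the authors used the likelihood ratio test, with Benjamini-Hochberg adjustment over all genes tested and no fold threshold. Differences among the 4 retina treatments were tested with an F test on the 22 retinas. Likeness was Pearson's r on log2 CPM (prior count 2), centred by experiment. The test was checked on simulated data.

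The members, gene lists and tests were chosen with earlier results of these data known. Named genes were the 10 members, the 3 genes most like each, and up to 4 passing genes per other list and comparison with the smallest p. A gene that this rule names is not reported here. B4galt2, Ccdc24, Elp4, Pax6os1 and the genes with 0 counts in sorted rods were named after values were seen. The alternatives tried were DESeq2 1.42.0, the likelihood ratio test, normalization by RLE, scaling without rod genes or to bipolar and ganglion cell genes (added after seeing the data), no filter on low counts, a log2 fold threshold of 1, a replicate block and leaving out each library. No 2 replicates were copies. Figures were made with Python and matplotlib.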

Additional observations from a re-analysis of the deposited data

Results flagged for a closer look

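Calb2 in the control retinas of the DZNep experiment was marked because 1 of the 4 libraries lay far from the others. The first control measured 426 CPM and the other 3 measured 553 to 572.5 CPM, so that the gap to the nearest control was 0.869 of the whole range. The same control was the lowest of the 4 for 9 of the 10 members, which was not counted over all genes. Without it the log2 fold change of Calb2 after DZNep was -0.46 (adjusted p = 0.0003). Chance marks about 1 in 20 such groups, and 10 were looked at, 1 for each member. Groups of 2 or 3 libraries could not be looked at in this way.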

How the results depend on the processing

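Of 282 values of single members recomputed with all libraries under other tests, scalings and filters, leaving aside the scaling to bipolar and ganglion cell genes, 273 kept their direction and side of the threshold, 4 lost it, 5 gained it and none changed sign. Of 248 recomputed with 1 library left out, 211 kept both, 16 lost the threshold, 8 gained it and 13 changed sign. Where no cause is named, the cause was not tested.

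For all genes, the counts that passed moved as follows. By the likelihood ratio test 1641 genes passed after UNC1999 (95 in the main test), 145 after UNC0642 (0), 1185 after Romidepsin (120) and 71 in sorted rods (0), and by DESeq2 1456, 172, 1074 and 48. With no filter on low counts the numbers were 1024, 1052, 670 and 186, and members then passed in 2 experiments: 1 after UNC0642 (Calb2) and 2 in sorted rods (Gad1 and Calb2). With the added threshold of a log2 fold change of 1, 281 genes and 0 members passed after DZNep, against 3734 and 4, and 58 genes after UNC1999. The test of a difference among the 4 retina treatments passed 2 members by the likelihood ratio test, 2 by DESeq2 and 2 with no filter.

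The deviations of same-numbered libraries of a treatment and its controls had correlations of both signs, between -0.395 and 0.289. The numbers were therefore not taken to pair the samples. With 2 libraries in each group the correlation is 1 value given for both numbers (0.229 for UNC0642 and -0.113 in sorted rods). There it cannot decide whether the samples were paired. With a replicate block 1415 genes and 0 members passed after DZNep, 30 genes after UNC1999, 589 after UNC0642 and 3 in sorted rods.

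Scaled to the bipolar and ganglion cell genes, 30 of 47 values of single members kept both, 2 lost the threshold, 1 gained it and 14 changed sign; 6235 genes passed after DZNep (97.5% of them higher, against 57.1%) and 1 member, 382 after UNC1999, 3 after UNC0642, 5448 after Romidepsin (97.9% higher, against 76.7%) and 4 in sorted rods. The members whose change turned positive after DZNep were Gad1 (0.12), Gad2 (0.11), Slc6a9 (0.029), Tfap2a (0.16), Tfap2b (0.095), Pax6 (0.0085) and Chat (0.021). Those that turned after Romidepsin were Gad1 (0.13), Gad2 (0.17), Slc32a1 (0.14), Tfap2a (0.052), Pax6 (0.16), Th (0.19) and Calb2 (0.14). This scaling sets the summed counts of the bipolar and ganglion cell genes level. With it the median of all genes shifted by 0.27 after DZNep and by 0.39 after Romidepsin.

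With 1 library left out, 1082 (without the first DZNep retina) to 4537 genes (without the first control) and 0 to 9 members passed after DZNep. The ranges were 4 to 2707 genes and 0 to 1 members after UNC1999, 0 to 148 genes after UNC0642, 0 to 508 after Romidepsin, 0 to 210 genes and 0 to 1 members in sorted rods, and 0 to 2 members for the difference among treatments. Signs changed for Gad1 (-0.043 to 0.097), Tfap2a (-0.10 to 0.0020), Tfap2b (-0.037 to 0.068) and Calb2 (-0.0295 to 0.035) after UNC1999, for Tfap2a (-0.031 to 0.13) and Th (-0.018 to 0.38) after UNC0642, and for Gad2 (-0.48 to 1.63), Slc6a9 (-0.10 to 0.42) and Pax6 (-0.18 to 0.75) in sorted rods. Where a group was left with 1 library, that library was assumed to vary like the others. In sorted rods the 95% intervals had a median half-width of 1.11 on the log2 scale, so for most members tested a change under 2-fold leaves 0 inside the interval. These intervals are not adjusted for the number of genes tested, and larger changes could be missed too. Calb2, with a log2 fold change of 1.72, had an adjusted p of 0.687 by the quasi-likelihood F test.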
